A study of Mus musculus with 6 samples.

Results

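Oxidative phosphorylation subunits are the proteins of the mitochondrial respiratory chain and ATP synthase, and those listed here are nuclear-encoded. Of 59 subunit genes listed by complex, 43 had a row of their own among the 16700 rows of the array table, that is, a row whose annotation gave that gene symbol and no other. Another 5 lay only on rows shared with other symbols, and 11 had no named row. The measured genes were 22 of 26 listed for complex I, 4 of 4 for complex II, 5 of 6 for complex III, 8 of 12 for complex IV and 4 of 10 for complex V. The gene for cytochrome c, Cycs, had no named row. No measured member had more than 1 row.

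The samples were C2C12 myotubes, the fused muscle cells that this mouse myoblast line forms when it differentiates, infected with adenovirus. In the ATF4 group (3 samples) the virus encoded FLAG-tagged ATF4 together with eGFP. In the control group (3 samples) it encoded eGFP with FLAG-tagged ATF4∆bZIP, a form of ATF4 without its DNA-binding domain that the series describes as inactive in transcription. RNA was taken 48 hours after infection and put on 1 Affymetrix mouse exon array per sample, so that all arrays come from 1 cell line and from virus-infected cultures, and no uninfected culture was analysed here. The labels number the samples 1 to 3 in each group and do not say that they came from separate cultures, so a p-value here speaks only of how far these samples scatter, and that scatter may be technical. Values are taken to be log2 intensities, a scale inferred from their range.

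The respiratory chain passes electrons from NADH (complex I) and succinate (complex II) through coenzyme Q, complex III and cytochrome c to oxygen at complex IV, and complex V uses the proton gradient this builds to make ATP. Some complex IV subunits exist as a ubiquitous isoform and as an isoform of heart and skeletal muscle, encoded by separate genes. In muscle, Cox6a2, Cox7a1 and Cox8b are the muscle forms, and Cox6a1, Cox7a2 and Cox8a are their ubiquitous counterparts. ATF4 is a transcription factor of the integrated stress response, which is also triggered when mitochondrial respiration fails. The comparison asks which of these subunits differed when the myotubes carried active ATF4.

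The largest changes among the measured subunits were those of the muscle isoforms of complex IV, in opposite directions. Cox6a2 was 2.02-fold higher in ATF4 arrays and Cox8b was 2.54-fold lower. Among all 16700 rows the change of Cox8b was the 14th lowest and that of Cox6a2 the 142nd highest. The other 41 measured members had changes from -0.31 to 0.60 on the log2 scale. By the limma test (adjusted p below 0.05 over all rows) 0 members were higher and 0 lower, where 0.569% of all rows were higher and 0.024% lower. At an unadjusted p below 0.05 there were 4 members of 43 (Cox6a2, Cox8b, Uqcrq and Ndufa2), or 9.30%, against 5.26% of all rows and 7.16% of the bright rows, meaning rows at or above the 75th percentile of mean level, where most members lie. When limma was given the sample number as a block, Cox6a2 and Uqcrq rose and Cox8b fell, 3 of 43 members, where the block called 2.4% of all rows higher and 1.16% lower, and 5.1% and 1.22% of the bright rows. At an unadjusted p below 0.05 the blocked limma fit gave 9 of 43 members, or 20.9%, against 17.7% of all rows and 23.4% of the bright rows, so this share was near the background.

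**Figure D1:**
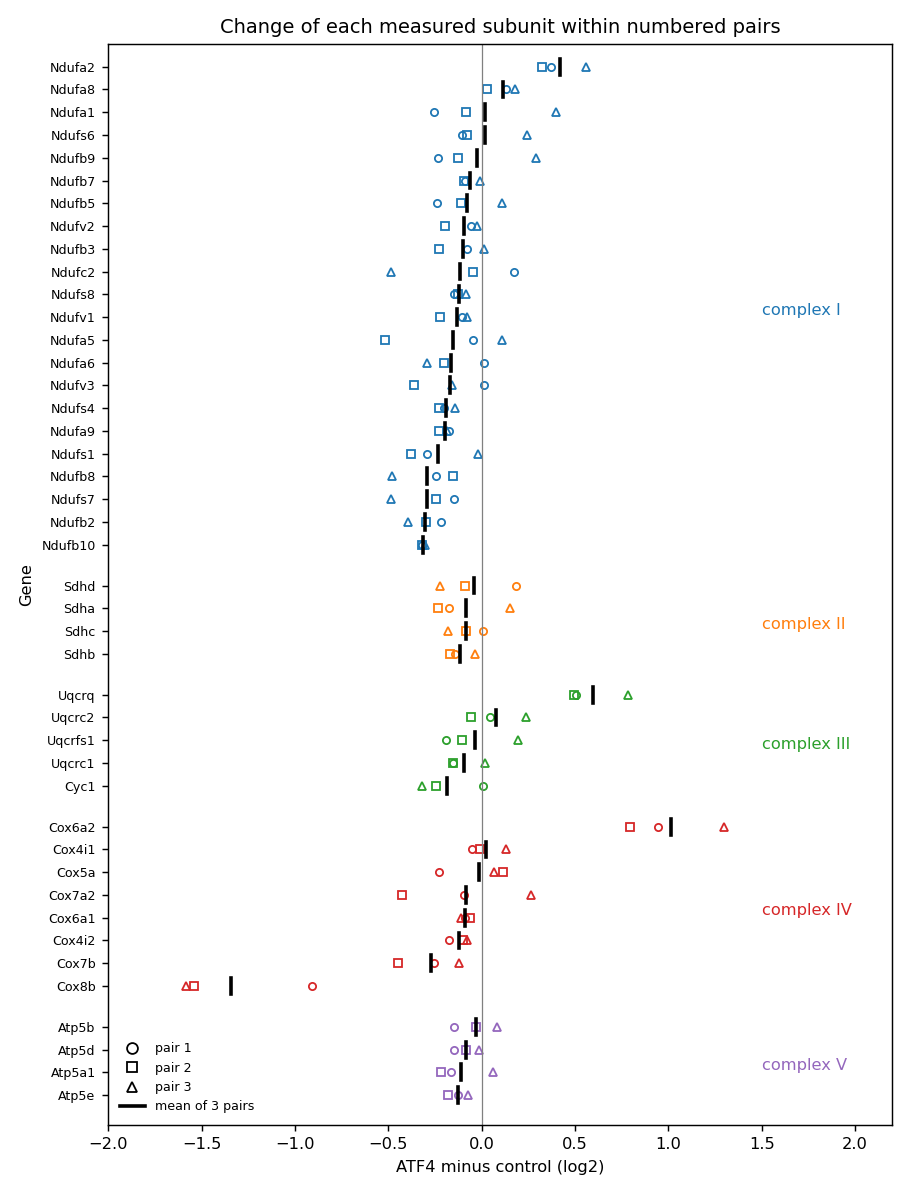
Change of each of the 43 measured subunit genes (rows, grouped by complex and ordered by mean change), as ATF4 minus control on the log2 scale. Open symbols are the differences within sample numbers 1, 2 and 3, and black bars are their mean. Cox6a2 lies at 1.01 and Cox8b at -1.34, while the others lie between -0.31 and 0.60.

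Cox6a2 encodes the muscle form of subunit VIa, a small nuclear-encoded subunit that lies at the interface of the complex IV dimer. Its values (transcript cluster 6971424) were 8.90, 9.21 and 8.22 in control arrays 1, 2 and 3 and 9.85, 10.01 and 9.51 in ATF4 arrays 1, 2 and 3. Every ATF4 array was above every control array, and array 3 was the lowest of its group on both sides. The mean went from 8.78 ± 0.51 to 9.79 ± 0.25 (SD, n = 3 per group), and the change was 1.01 (standard error 0.26, limma adjusted p = 0.200). Within numbers the differences were 0.95, 0.80 and 1.30, and the blocked limma fit gave an adjusted p of 0.0147. That call held when any numbered pair was left out of the blocked fit (limma adjusted p from 0.00162 to 0.0465).

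Cox6a1, the ubiquitous form of the same subunit, did not move with it. Its values (transcript cluster 6941294) were 11.34, 10.85 and 11.45 in control arrays and 11.26, 10.79 and 11.34 in ATF4 arrays. The groups overlapped, and array 2 was the lowest on both sides. Its change was -0.09 (95% interval -0.59 to 0.41, and -0.28 to 0.11 with the block; limma adjusted p = 1). Set against Cox6a1 within each array, Cox6a2 changed by 1.10 on the log2 scale, or by 1.03, 0.86 and 1.41 within numbers 1, 2 and 3. In an exact two-sided permutation test over the 3 and 3 arrays, which ignores the numbers, this gave p = 0.2, where the smallest p that 3 against 3 allows is 0.1. Without control array 3 this difference of changes was 0.70.

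Cox8b encodes the muscle form of the small subunit VIII. Its values (transcript cluster 6972159) were 9.27, 10.17 and 9.19 in control arrays 1, 2 and 3 and 8.36, 8.63 and 7.61 in ATF4 arrays. All 3 ATF4 arrays were below all 3 control arrays, and control array 2 stood about a log2 unit above the other controls. The mean went from 9.54 ± 0.54 to 8.20 ± 0.53 (SD, n = 3 per group), and the change of -1.34 (standard error 0.32) had a limma adjusted p of 0.139. Within numbers the differences were -0.91, -1.54 and -1.58, and the blocked limma fit gave an adjusted p of 0.0139. Leaving out pair 3 from the blocked fit ended that call (limma adjusted p = 0.0771). In the fit without block, leaving out control array 3 brought the limma adjusted p to 0.0288, and leaving out any other single array gave no call. Without control array 2 the change was -1.03 (limma adjusted p = 0.277). The ubiquitous counterpart Cox8a had no named row, so this isoform pair could not be compared.

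These muscle isoforms were set against each other after their values had been seen, so the comparison is a description. Within each array, Cox6a2 minus Cox8b was -0.37, -0.96 and -0.98 in control arrays and 1.48, 1.38 and 1.90 in ATF4 arrays. The difference of their changes was 2.36 on the log2 scale and stayed between 2.08 and 2.61 in every alternative processing tried. Of the protein-coding genes next to Cox8b, Psmd13 had a change of 0.00 (control mean 7.91) and Nlrp6 one of -0.09 on the log2 scale. The Nlrp6 row was dim, with a control mean of 4.59, where the 25th percentile of all rows was 4.77 to 5.18 in control arrays. A fall there could be missed. The genes next to Cox6a2, Itgad and 9130023H24Rik, had no row of their own. Itgad overlaps Cox6a2 in the RefSeq gene table, so signal from Itgad on the Cox6a2 row could not be checked.

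**Figure D2:**
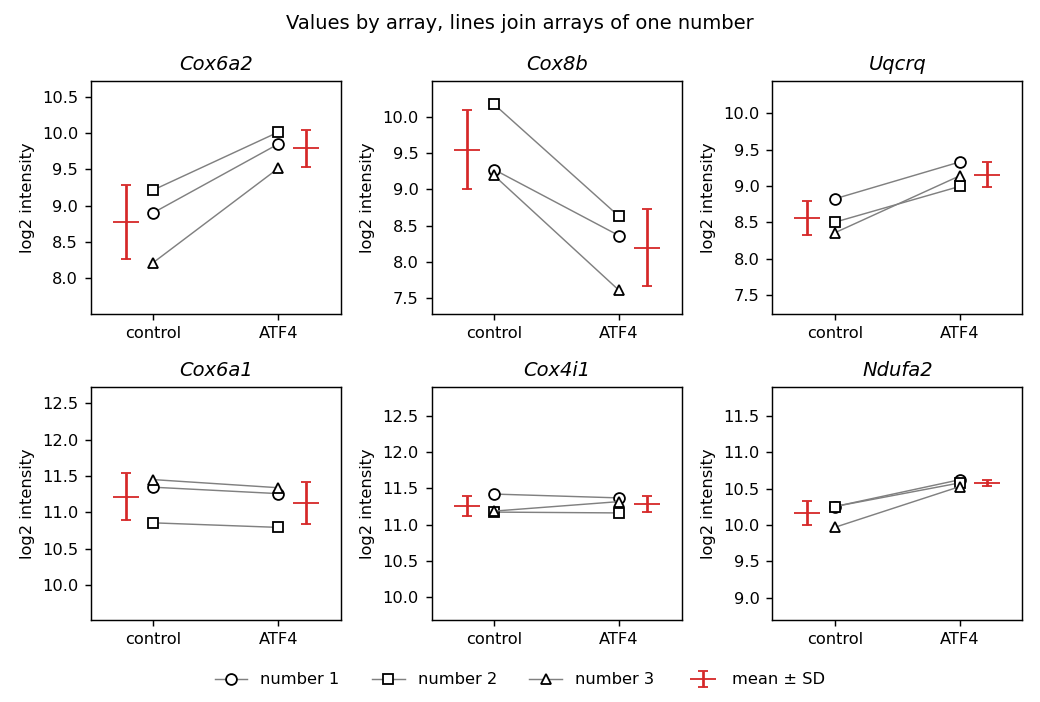
Log2 intensity of Cox6a2, Cox8b, Uqcrq, Cox6a1, Cox4i1 and Ndufa2 in each of the 3 control and 3 ATF4 arrays. Grey lines join arrays of one sample number, red bars are the group mean ± SD (n = 3), and each panel spans the same number of log2 units. The lines of Cox6a2, Uqcrq and Ndufa2 all go up and those of Cox8b all go down.

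The upstream sequence of Cox8b is shown beside that of Cox6a1 because they are a muscle and a ubiquitous subunit gene of the same complex, with changes of -1.34 and -0.09. Without the block neither passed, and with it Cox8b did. Both are the 250 bases before the transcript start, 5′ to 3′ on the gene's own strand, from RefSeq on GRCm38.p6, a later build than the mm9 named in the submitters' processing notes. Capitals mark matches to the motifs named in the next paragraph. The Cox8b stretch lies at chr7:140900447-140900696 and the Cox6a1 stretch at chr5:115348959-115349208, both on the minus strand.
Cox8b: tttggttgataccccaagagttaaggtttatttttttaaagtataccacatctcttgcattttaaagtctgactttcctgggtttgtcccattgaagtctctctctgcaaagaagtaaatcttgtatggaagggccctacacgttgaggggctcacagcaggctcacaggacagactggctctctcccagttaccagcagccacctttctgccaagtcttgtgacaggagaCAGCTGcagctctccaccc
Cox6a1: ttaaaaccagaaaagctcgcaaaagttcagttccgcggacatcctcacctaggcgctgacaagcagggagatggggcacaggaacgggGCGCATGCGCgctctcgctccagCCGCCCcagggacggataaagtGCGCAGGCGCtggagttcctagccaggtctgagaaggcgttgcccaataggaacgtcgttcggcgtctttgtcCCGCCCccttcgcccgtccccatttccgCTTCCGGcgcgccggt

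The Cox8b stretch held 47.2% G and C with 1 CpG, and the Cox6a1 stretch 62.8% with 26, against medians of 52.4% and 6 over all 32851 starts in the table. Matches were searched on both strands. An E-box, the site of myogenic factors (CANNTG), was found in Cox8b as CAGCTG, beginning 19 bases before the start, and is present upstream of 66.2% of all starts. Cox6a1 held 2 matches to the site of NRF1, a factor that activates respiratory chain genes (searched with 1 open base, 3.74% of all starts), beginning 162 and 117 bases before the start. It also held 2 GC boxes (GGGCGG, 32.7% of all starts) and 1 ETS site (CCGGAAG, 6.91%). Cox6a2 and Uqcrq, the members that rose with the block, had no entry among these starts, so neither was searched. Across the 34 starts listed for 32 measured members, 0 held the composite C/EBP-ATF site in the form searched (TGATGNAAT, 0.816% of all starts). Other forms of that site were not searched. A CRE was held by 2 of the 34 (TGACGTCA, 5.88% against 1.55%) and a MEF2 site by 0 (0.508% of all starts). The NRF1 site was found in 7 of the 34, or 20.6%. That looser form was taken after the palindromic form alone had given 1 of 34 (2.94%, against 0.782% of all starts), and the upstream stretches of members hold more CpG than most, with a median of 14 against 6. The absence of a match says only that those letters are not in this window. A match is a description and not a sign of binding.

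The other 6 measured complex IV subunits had changes from -0.27 to 0.02. Cox4i1, a regulatory subunit present in most tissues, had 11.42, 11.17 and 11.19 in control arrays and 11.37, 11.16 and 11.32 in ATF4 arrays, with overlapping groups and a change of 0.02 (95% interval -0.37 to 0.41). Cox4i2, its counterpart of lung and oxygen-poor cells, was a dim row, at the 36.6th percentile of all rows, with 5.28, 5.29 and 5.70 in control and 5.11, 5.19 and 5.62 in ATF4 arrays, which also overlapped. The 2 forms changed by amounts that differed by -0.14 on the log2 scale (exact two-sided permutation test, p = 0.6). Cox7b, a small subunit encoded on the X chromosome, had 7.07, 7.29 and 6.96 in control and 6.82, 6.84 and 6.84 in ATF4 arrays. Its groups did not overlap. The change of -0.27 missed the threshold, with a limma adjusted p of 1, or 0.224 under the block. Cox5a, a subunit on the matrix side, had a change of -0.02.

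Cox7a2, the ubiquitous form of subunit VIIa, was the measured member with the largest scatter, the only one with a standard error above 0.4. Its values were 8.36, 8.86 and 6.71 in control arrays and 8.26, 8.43 and 6.98 in ATF4 arrays. Both arrays numbered 3 were more than a log2 unit below the rest, and the change was -0.09 with a 95% interval of -1.24 to 1.07, or -0.44 to 0.26 with the block. Its muscle counterpart Cox7a1 had no named row. The row that Cox6c shares with another symbol had a change of -0.03.

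In complex III the subunit Uqcrq, a small subunit without a redox centre, stood apart from the rest. Its values (transcript cluster 6788274) were 8.82, 8.50 and 8.36 in control arrays and 9.33, 8.99 and 9.14 in ATF4 arrays. No ATF4 array fell to the level of a control array. The mean went from 8.56 ± 0.24 to 9.15 ± 0.17 (SD, n = 3 per group), a 1.51-fold difference with a log2 change of 0.60 (standard error 0.19, limma adjusted p = 0.433). Differences within numbers were 0.51, 0.49 and 0.78, and the blocked limma fit gave an adjusted p of 0.0362. The blocked call ended without pair 1 (limma adjusted p = 0.0810) and without pair 3 (0.0918). Uqcrq overlaps Gdf9, a growth factor gene of oocytes, in the RefSeq gene table, and the Gdf9 row had a change of 0.34 (adjusted p = 1 by limma, 0.367 under the block). The neighbour on the other side, Leap2, had 0.00.

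The other 4 measured complex III genes had changes from -0.19 to 0.08. Cyc1, the cytochrome c1 that hands electrons to cytochrome c, had 8.27, 8.26 and 8.38 in control arrays and 8.28, 8.01 and 8.06 in ATF4 arrays, a change of -0.19 (limma adjusted p = 1). Its groups overlapped through ATF4 array 1. The core proteins Uqcrc1 and Uqcrc2 had -0.10 and 0.08, and the Rieske iron-sulfur protein Uqcrfs1 had -0.04.

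Complex I, the entry point for electrons from NADH, was the best covered, and 18 of its 22 measured subunits had a lower mean in ATF4 arrays by small amounts. The median change was -0.13, against -0.03 over all rows, and 0 passed in either fit. Leaving out single arrays moved that median widely, to -0.32 without control array 3, -0.25 without ATF4 array 2, -0.05 without ATF4 array 3 and -0.0029 without control array 2. Its range ran from -0.31 for Ndufb10 to 0.42 for Ndufa2. The 5 measured core subunits, which carry the flavin and iron-sulfur clusters (Ndufs1, Ndufs7, Ndufs8, Ndufv1 and Ndufv2), had changes from -0.29 to -0.09 and were lower in all 3 numbered pairs each. Of the 17 accessory subunits, 6 were lower and 2 higher in all 3 pairs. Among all rows 24.5% were lower and 17% higher in all 3 pairs.

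Ndufa2, an accessory subunit of the peripheral arm, was the complex I gene with the highest change. Its values (transcript cluster 6864702) were 10.25, 10.25 and 9.97 in control arrays and 10.62, 10.58 and 10.53 in ATF4 arrays. The groups did not overlap and the 3 ATF4 arrays lay close together. The change was 0.42 (standard error 0.17) and passed in neither fit: the limma adjusted p was 0.823, or 0.0760 under the block. Tmco6, which overlaps Ndufa2 in the RefSeq gene table, had 0.16 and the neighbour Ik had 0.07, both with a limma adjusted p of 1. Ndufa8 was the other member higher in all 3 pairs, by 0.13, 0.03 and 0.18.

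Ndufb10, an accessory subunit of the membrane arm, had the lowest change in the complex. It had 8.88, 8.95 and 8.05 in control arrays and 8.56, 8.63 and 7.75 in ATF4 arrays. The groups overlapped because both arrays numbered 3 were low, but the differences within numbers were nearly equal, at -0.32, -0.32 and -0.30. With the block the 95% interval was -0.51 to -0.12 and the limma adjusted p was 0.112. Ndufs7, which holds the last iron-sulfur cluster before coenzyme Q, had 8.35, 8.46 and 8.48 in control and 8.20, 8.21 and 7.99 in ATF4 arrays, without overlap, and a change of -0.29 (adjusted p = 1 by limma, 0.204 under the block). The membrane arm subunits Ndufb2 and Ndufb8 were lower in every pair too, with changes of -0.30 and -0.29. In Ndufa1, another accessory subunit, the spread between arrays exceeded the change. It had 9.85, 9.93 and 8.74 in control and 9.60, 9.85 and 9.14 in ATF4 arrays, a change of 0.02. The row that Ndufa10 shares with 2 olfactory receptor symbols had -0.10.

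Complex II, succinate dehydrogenase, which also serves the citric acid cycle, was measured in full. Its flavoprotein Sdha had 8.97, 9.02 and 8.54 in control and 8.80, 8.79 and 8.69 in ATF4 arrays. The iron-sulfur protein Sdhb had 8.57, 8.92 and 8.13 in control and 8.42, 8.75 and 8.10 in ATF4 arrays. In both genes the groups overlapped and control array 3 was the lowest control. Sdhc, a membrane anchor, had 8.81, 8.91 and 8.86 against 8.82, 8.83 and 8.68, and the other anchor Sdhd had 7.64, 7.62 and 7.83 against 7.82, 7.53 and 7.61. These overlapped as well. The 4 changes ran from -0.12 to -0.04, none passed in either fit, and with the block every 95% interval lay between -0.35 and 0.22.

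Among the listed genes of complex V, the ATP synthase, only subunits of the catalytic F1 part had rows of their own. The alpha subunit Atp5a1 had a change of -0.11, the beta subunit Atp5b -0.03, the delta subunit Atp5d -0.08 and the epsilon subunit Atp5e -0.13. Atp5b had 10.53, 10.55 and 9.98 in control arrays and 10.38, 10.52 and 10.07 in ATF4 arrays. Atp5e had 10.52, 10.62 and 10.35 in control and 10.39, 10.44 and 10.27 in ATF4 arrays. For Atp5b and Atp5e the groups overlapped and array 3 was the lowest of its group. The groups of Atp5a1 and Atp5d overlapped too. The shared rows that include the gamma subunit Atp5c1, the coupling factor Atp5j and the stalk subunit Atp5o had -0.17, -0.15 and -0.17, with 0 of the 3 past either test. The last of these did not overlap between groups, and none of the 3 values can be assigned to 1 gene.

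Across complexes the median changes were -0.13 for complex I, -0.09 for complex II, -0.04 for complex III, -0.09 for complex IV and -0.10 for complex V. These were not tested against each other. Within number 1 the medians were -0.13, -0.07, 0.01, -0.14 and -0.15 for complexes I to V, within number 2 they were -0.20, -0.13, -0.11, -0.08 and -0.13, and within number 3 they were -0.05, -0.11, 0.19, -0.01 and 0.02. The order of the complexes thus changed from number to number, and the medians of complexes III and V were above 0 in number 3.

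A lower mean in ATF4 arrays was found for 35 of the 43 members, or 81.4%, against 58.3% of all rows and 45.2% of the bright rows. The median change of the members was -0.10, against -0.03 for all rows and 0.02 for the bright rows. With single arrays left out the members' median lay between -0.20 and -0.03. Lower in all 3 pairs were 18 members, or 41.9%, against 24.5% of all rows and 21.2% of the bright rows. Higher in all 3 were 4, or 9.30%, against 17% and 29%. Groups did not overlap for 3 members that were higher (Cox6a2, Uqcrq and Ndufa2) and 3 that were lower (Cox8b, Cox7b and Ndufs7), where 4.5% of all rows were higher and 4.62% lower without overlap, and 7.19% and 4.02% of the bright rows. Under 4 rescalings of the arrays the members with a lower mean numbered 30 to 38, where 46.7% to 54.5% of all rows had one. Under these rescalings 13 to 24 members were lower in all 3 pairs, where 17.4% to 22.8% of all rows were. Of the 40 members other than Cox6a2, Cox8b and Uqcrq, 7 had a 95% interval within 0.5 log2 units of 0 and 39 within 1 unit. With the block these counts were 34 and 40. A p that missed the threshold does not show that those members were equal between groups.

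**Figure D3:**
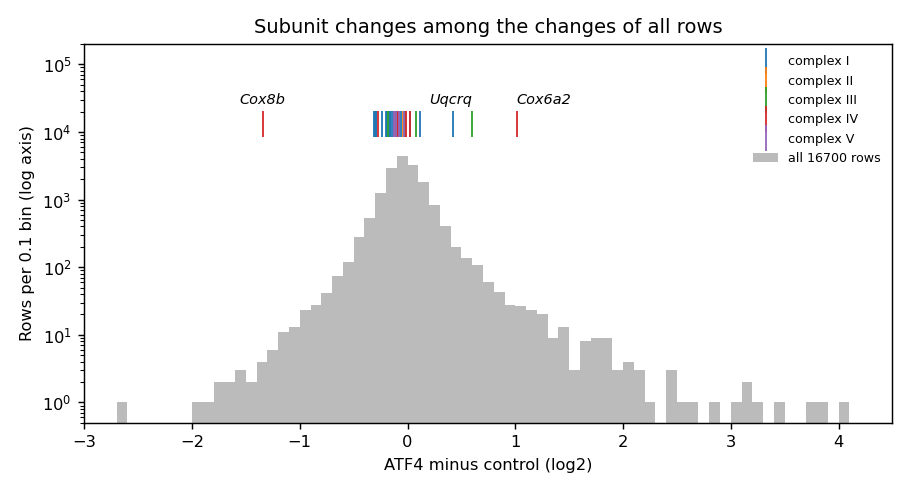
Change of all 16700 rows (grey bars, rows per bin of 0.1 on a log axis) with the 43 subunit genes as coloured ticks by complex, as ATF4 minus control on the log2 scale. Apart from Cox8b at -1.34, Uqcrq at 0.60 and Cox6a2 at 1.01, the ticks gather over the centre of the bars.

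The arrays numbered 3 stood apart in both groups. Their interquartile ranges were 1.63 and 1.80, against 2.19 to 2.28 on the other 4 arrays. Against the mean of the group, the members lay at a median of -0.20 in control sample 3 and of -0.12 in ATF4 sample 3, and 36 of 43 members lay below the group mean on each. The bright rows stood at -0.28 and -0.17 on the same arrays. Complex I deviated by -0.25 on control array 3 and -0.26 on ATF4 array 3. Without both arrays numbered 3, Cox6a2 had a change of 0.87, Cox8b -1.23 and Uqcrq 0.50, with limma adjusted p of 0.111, 0.237 and 0.446.

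**Figure D4:**
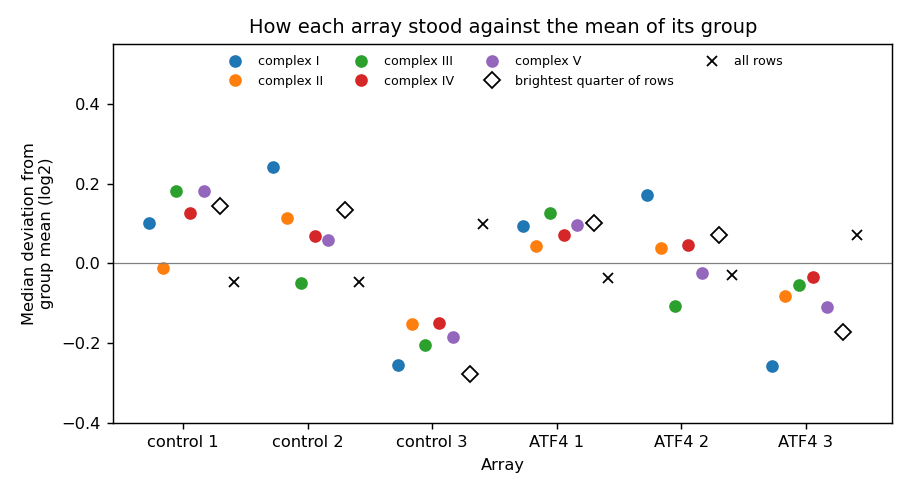
Median deviation of the members of each complex from the mean of their group (log2), for each of the 6 arrays, with the bright rows (diamonds) and all rows (crosses). The members and the bright rows lie below 0 on control array 3 and ATF4 array 3, and all rows lie above 0 there.

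Cell identity was checked with marker genes. All 7 measured myotube markers, of 10 listed, were brighter than the median row, and 4 were among the bright rows, while 1 of 4 myoblast, 0 of 4 fibroblast, 0 of 3 adipocyte, 0 of 4 endothelial and 0 of 3 leukocyte markers were among them. The mean level of the myotube markers was 8.61 to 9.17 in control and 8.41 to 8.87 in ATF4 arrays. The mean of each of the 7 was lower with ATF4, the median change being -0.30. By limma 0 passed and 0 had an unadjusted p below 0.05. With the block 1 of 7, the troponin Tnnc2, fell (-0.48; limma adjusted p = 0.0397), where 1.16% of all rows fell, and 5 of 7 had an unadjusted p below 0.05, against 17.7% of all rows. Lower in all 3 pairs were 5 of 7, against 24.5% of all rows. The 4 myoblast markers also had lower means, with a median change of -0.12 and 0 past either test. Cox8b was lower like these markers and Cox6a2 higher, and the part of the markers' shift in either change was not tested. In these bulk samples, fewer myotube nuclei and less RNA per myotube cannot be told apart. The fibroblast markers had a mean level of 4.93 to 5.24 in control and 5.23 to 5.36 in ATF4 arrays, with a median change of 0.18 and 0 of 4 past either test. Among them Dpt, an extracellular matrix protein, had a change of 0.48 without overlap of the groups (limma adjusted p = 0.853, or 0.131 under the block). The leukocyte marker Ptprc, named like Dpt after its values were seen, had 3.94, 4.18 and 4.45 in control and 4.87, 5.16 and 4.79 in ATF4 arrays. Its groups did not overlap, the change was 0.75 (limma adjusted p = 0.222, or 0.0568 under the block), and its mean level was at the 17.7th percentile of rows. The other measured leukocyte markers, Cd68 and Cd3e, went the other way, with changes of -0.35 and -0.04, and the list's median change was -0.04. All 3 leukocyte markers were below the median row, in cultures of 1 cell line. Any part of signal from the overlapping integrin gene Itgad in the change of Cox6a2 was not tested.

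Genes that build or serve the chain outside the 59 listed were looked at in 7 further lists, which together held 69 measured genes of 117 names. In this set 0 genes passed the limma test, also 0 at an unadjusted p below 0.05, and 1 rose with the block, where all rows gave 2.4%. That gene was Mterf3, a brake on mitochondrial transcription and a factor of mitochondrial ribosome assembly. It had 7.36, 7.57 and 6.61 in control arrays and 7.78, 8.25 and 7.18 in ATF4 arrays. The groups overlapped because of the low arrays numbered 3, and the differences within numbers were 0.42, 0.68 and 0.58 (adjusted p = 1 by limma, 0.0357 under the block). That call ended without any one pair (limma adjusted p of 0.0699, 0.0761 and 0.117 without pairs 1, 2 and 3).

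Assembly factors were not tested against the subunits, and 0 of them passed in either fit. Of 25 measured factors for complexes II to V, 21 had a lower mean, with a median of -0.09, and of 12 for complex I, 9 had a lower mean, with a median of -0.04, where 58.3% of all rows had a lower mean and the median was -0.03. Uqcc2, which helps assemble complex III, had a change of -0.47 (adjusted p = 1 by limma, 0.0658 under the block). Atpaf1, which assembles the F1 part of ATP synthase, had -0.33, and its groups did not overlap. For complex I, Ndufaf3 had -0.30 and Tmem126b -0.25. Of the 10 measured genes in the list of other subunits, 9 had a lower mean, with a median of -0.13. That list includes Atpif1 (-0.12), an inhibitor of ATP synthase and not a subunit. Ndufa12, an accessory subunit of complex I, was the exception at 0.30, and Ndufb11 had -0.20.

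Coenzyme Q synthesis, with 10 measured genes, had a median of -0.06, and the prenyltransferase Coq2 had -0.14 and the methyltransferase Coq3 0.16. Genes that copy and transcribe mitochondrial DNA, also 10, had a median of -0.03. Of the further isoforms, Cox7b2 had a mean of 2.94 in control arrays, where the 5th percentile of all rows was 3.40 to 3.75, and Atp5g3, which encodes the c-ring protein of ATP synthase, had a change of -0.06. None of the 13 subunit genes encoded by mitochondrial DNA had a named row, so only the nuclear side of the chain was seen.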

How the data were processed

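Per the labels' protocols, RNA was isolated with TRIzol and turned into amplified, biotin-tagged cDNA by NuGEN kits. The authors deposited 1 value per array for 16700 transcript clusters, taken here as log2. GCOS, RMA and mm9 come from the submitters' processing notes; how they were set, and their versions, is not given in the sources used here. No detection calls were used, so a dim row's change may be understated, and probes shared with pseudogenes, common for these subunits, could not be set aside. Depth does not apply to arrays, and the number of arrays limits the precision.

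The platform annotation gave 14988 rows 1 symbol, 1018 several and 694 none; all rows were tested. Changes are ATF4 minus control from lmFit and eBayes of limma 3.58.1 (R 4.3.3), unfiltered and two-sided; p-values were adjusted by Benjamini-Hochberg over all rows, with a threshold of 0.05; the fit had 4 residual and 6.30 prior degrees of freedom, and 2 and 3.77 with the block. Intervals are 95% and not adjusted. The fits were tested on simulated data.

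The members and lists were chosen with earlier results of these data known. Named were members past the threshold in either fit, the highest and lowest change per complex, isoform pairs and complex II. From each further list, genes past either fit were named, or the 2 with the smallest p; other members are named as examples chosen after their values were seen.

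The numbers come from the titles, which do not say that samples of one number were handled together. Deviations from the group mean correlated over all rows by 0.578, 0.636 and 0.782 for arrays of one number, each above the limit of 0.1. For arrays of different numbers the correlations were -0.666 to 0.221. Control 1 with ATF4 2 (0.168) and control 2 with ATF4 1 (0.221) also passed 0.1, so that limit alone does not set the pairs apart. Numbers were read as pairs, and the blocked value stands beside a result where it changes the call. Alternatives were the block, 4 rescalings (quantile, median centring, one interquartile range, cyclic loess), leaving out dim rows or arrays, other eBayes settings and array weights. Promoters are RefSeq sequences of GRCm38.p6.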

Additional observations from a re-analysis of the deposited data

How the results depend on the processing

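Without a block, 0 members were higher and 0 lower. The replicate block gave 2 higher and 1 lower, and so did the block with cyclic loess. Cyclic loess alone gave 1 higher and array weights 1 higher and 1 lower. With a pair left out of the blocked fit, 1, 2 and 1 members were higher without pairs 1, 2 and 3, and 1 was lower without pair 1 or pair 2. Leaving out single arrays gave 0 higher throughout and 0 to 1 lower, the 1 being Cox8b without control array 3. The further lists had 1 gene higher with the block, with or without cyclic loess, and 0 otherwise, also with any pair left out of the blocked fit. The complex III median was -0.15 without control replicate 3 and 0.070 without control replicate 1, the lowest and highest when single arrays were left out. Single arrays left out took the complex I median from -0.32 to -0.0029 and the complex II median from -0.16 to -0.03. They took complex IV from -0.11 to 0.03 and complex V from -0.20 to 0.02, so the sign of these medians depended on single arrays. The difference of changes for Cox4i2 minus Cox4i1 ran from -0.29 to 0.03 in the same way. That for Cox6a2 minus Cox6a1 was lowest at 0.70, without control replicate 3. Rows past the threshold numbered 99 without and 594 with the block, 57 after centring, 151 after cyclic loess, 561 with array weights, 157 without both arrays numbered 3, 354, 630 and 261 with the block and pair 1, 2 or 3 left out, 616 with the block and cyclic loess, and 38 to 243 with single arrays left out. The block changed no call of a named gene other than Cox6a2, Cox8b, Uqcrq, Mterf3 and the marker Tnnc2. The causes were not tested. The pairs Cox7a1 with Cox7a2 and Cox8b with Cox8a could not be fitted for lack of rows.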
